A study of Homo sapiens with 12 samples.

Results

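The replication-dependent histone genes encode the core histones H2A, H2B, H3 and H4 and the linker histone H1 that package newly copied DNA. Members were taken by symbol from both deposited count tables as every gene named H2AC, H2BC, H3C or H4C with a number, or H1-1 to H1-6, without pseudogenes. This gave 66 of the 61163 genes, with 6 H1, 16 H2A, 17 H2B, 13 H3 and 14 H4 genes. RNA came from HEK293T, an established human embryonic kidney cell line that expresses a viral large T antigen. Wild-type cells (HEK WT) were compared with a line in which HNRNPUL1 was knocked out by CRISPR-Cas9 with guides in exons 2 and 3 (HEK UL1 KO). From each genotype a nucleolar (NO) fraction and the remaining cytoplasmic-nuclear (CN) fraction were sequenced, with 3 replicates each and 12 libraries in all. The labels do not name clones of the knockout line, so the knockout and any other property of that line cannot be told apart.

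Replication-dependent histone mRNAs end in a conserved stem-loop in place of a poly(A) tail. The stem-loop is bound by SLBP, a purine-rich element downstream of it pairs with the U7 snRNA, and the endonuclease CPSF3 cuts between both elements. The genes have no introns, lie in clusters on chromosomes 6 and 1 and are transcribed with the coactivator NPAT, and their mRNAs accumulate during S phase and are degraded when DNA synthesis stops. The libraries were made from total RNA without poly(A) selection and without depletion of rRNA, so RNA lacking a poly(A) tail could be counted.

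The 66 genes lay in 3 clusters in the GRCh38 annotation of GENCODE. The chromosome 1 cluster at chr1:149782689-149887965 held 11 members, the first chromosome 6 cluster at chr6:25723397-26285638 held 34 and the second at chr6:27125897-27893891 held 21. Each canonical transcript had a single exon, with a median length of 488 bases, and 65 of 66 were at most 800 bases long. A stem-loop of 16 bases, with a stem of 6 bases on either side of a loop of 4, was found after the stop codon of 66 of 66 members, starting 23 to 68 bases downstream (median 36). The same search of 150 bases after the stop codon found it in 87 of 19900 protein-coding genes (0.437%), the members included. In 2 of the 10 distinct sequences the stem has a T opposite a G, which was not scored as a pair. These 2 and the sequences shared by several members are shown, with the stem in capitals and the loop in lower case.
H2AC8, H2BC8, H3C7, H3C11, H1-2 and 33 other members: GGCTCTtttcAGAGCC
H4C1 and 8 other H4 genes: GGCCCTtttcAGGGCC
H2BC7 and 8 other members: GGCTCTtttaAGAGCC
H4C9, H4C12, H4C14 and H4C15: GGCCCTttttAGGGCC
H2AC11: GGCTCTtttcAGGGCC
H2AC15: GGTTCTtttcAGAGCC
The stem with a C-G pair in place of a T-A pair belonged to H4 genes alone. The letters AAAGAG, part of the purine-rich element, lay within 40 bases after the stem-loop in 21 of 66 members (31.8%). They lay in 1.56% of protein-coding genes in a window of the same length that began 52 bases after the stop codon.

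The promoters were read from RefSeq (GRCh38.p14) as 250 bases before to 50 after the start, and 61 of 66 members matched. The letters CCAAT were found on either strand in 52 of the 61 (85.2%) and in 35.7% of the 27305 promoters in the table. All 6 H1, 15 H2A, 17 H2B and 11 H3 promoters held them, but 3 of 12 H4 promoters did. TATAAA was found in 41 of 61 members (67.2%), against 11.95% of all promoters. The octamer ATTTGCAT, known as a site of POU2F1 in H2B promoters, was found in 14 of 17 H2B and 11 of 15 H2A promoters, in 0 of the H1, H3 and H4 promoters, and in 1.80% of all promoters. The 3 windows below belong to a divergent pair that rose, a pair whose partners differed and the gene that fell most. Matches to these motifs on either strand are in capitals, which run together where matches overlap.
H2AC8, chr6:26216671-26216970, plus strand: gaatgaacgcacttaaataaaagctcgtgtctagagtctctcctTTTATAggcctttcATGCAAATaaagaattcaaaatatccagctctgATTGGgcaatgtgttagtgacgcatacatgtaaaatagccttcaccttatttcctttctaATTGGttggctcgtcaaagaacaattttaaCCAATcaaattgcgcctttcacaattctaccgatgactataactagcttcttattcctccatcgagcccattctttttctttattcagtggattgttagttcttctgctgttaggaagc
H2AC7, chr6:26199244-26199543, minus strand: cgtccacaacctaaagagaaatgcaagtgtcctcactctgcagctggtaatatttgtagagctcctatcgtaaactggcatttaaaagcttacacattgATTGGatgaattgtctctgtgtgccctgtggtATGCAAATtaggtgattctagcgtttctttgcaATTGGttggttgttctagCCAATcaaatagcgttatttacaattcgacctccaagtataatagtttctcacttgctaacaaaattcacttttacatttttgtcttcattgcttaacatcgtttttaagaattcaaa
H3C7, chr6:26250586-26250885, minus strand: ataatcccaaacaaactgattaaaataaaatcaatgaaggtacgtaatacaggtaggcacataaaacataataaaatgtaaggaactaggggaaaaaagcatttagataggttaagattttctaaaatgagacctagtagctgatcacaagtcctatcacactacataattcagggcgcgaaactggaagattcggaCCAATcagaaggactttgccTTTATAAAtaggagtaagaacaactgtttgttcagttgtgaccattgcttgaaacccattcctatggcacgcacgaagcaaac
The first window also holds the start of H2BC8 on the opposite strand and the second that of H2BC7, because H2A and H2B genes often start head to head. There were 11 such pairs, with 193 to 250 bases between their starts. The windows of such partners overlap and both strands were searched, so the same match can count for both genes of a pair. The H2A and H2B motif counts are therefore not independent, and a match need not belong to the gene it is listed for.

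Total counts ranged from 37141666 to 104040073 per library, of which rRNA made up 55.3 to 78.7%, and the members held 11437 to 31663 counts, or 0.0260 to 0.0409%. Levels are given as CPM, counts scaled to a common library total with TMM factors. HNRNPUL1 itself was at 17.7, 15.4 and 17.97 CPM in HEK WT against 4.74, 4.79 and 4.86 in HEK UL1 KO in CN, a fall by 1.83 on the log2 scale, and it fell by 2.00 in NO. The 7 genes of a HEK293T check (NEFL, NEFM, VIM, KRT8, KRT18, PAX2, LHX1) had counts in all 12 libraries. In CN of HEK UL1 KO 6 of them differed, 4 higher and 2 lower, where 37.9% of all genes differed. KRT8 (2.30) and VIM (-1.47) were the furthest apart. Of 6 marker genes of other cell types, 5 passed the count filter in NO and 3 in CN, where 1 was higher in HEK UL1 KO. The presence of counts therefore does not by itself set the cell line apart from other cell types. The TMM factors in NO were 0.690, 0.622 and 1.40 for HEK WT against 1.34, 1.09 and 1.15 for HEK UL1 KO, so that HEK WT replicates 1 and 2 lay below the other 4 libraries. In CN, HEK WT replicate 3 had a factor of 0.761 and the largest share of rRNA, where the other 5 libraries had factors of 1.01 to 1.09.

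Of the 66 members, 14 had too few counts for any test, with at most 13 counts in a library. Among these were H1-1, H1-5 and H1-6, with at most 4, 4 and 10 counts in a library, and the testis genes H2AC1 and H2BC1. Per kilobase of the canonical transcript, the highest mean levels over the 12 libraries were those of H2AC20 (41.0 CPM per kb), H2BC5 (38.6) and H2BC12 (37.4). The near-identical copies H2AC19 (37.2) and H2AC18 (36.97) came next. H2BC5 has 861 exonic bases against 486 in its canonical transcript, so its place depends on the length taken. H4C3 led the H4 genes at 31.2 CPM per kb, H3C2 the H3 genes at 28.4 and H1-2 the H1 genes at 21.9. H4C14 and H4C15, H3C14 and H3C15, H2AC18 and H2AC19, H4C11 and H4C12, and H2AC13 and H2AC14 share most of their 75-base windows, so their reads cannot be told apart fully and their values are not independent. H2AC18 and H2AC19 had 1019 and 1019 counts in HEK WT NO replicate 1, for example, so reads may have been counted at each copy, and the place of such copies among the highest levels may rest on this.

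In CN, HEK UL1 KO differed from HEK WT in 19 of the 50 tested members, where 37.9% of the 27234 genes tested differed (edgeR's quasi-likelihood test, Benjamini-Hochberg adjusted p under 0.05 over all genes). H2AC8, H2BC8 and H2BC7 rose, where 15.6% of all genes rose, and 16 members fell, where 22.3% of all genes fell. With library totals in place of TMM, 3 rose and 7 fell, where 13.6% of all genes rose and 6.35% fell, and the median over all genes moved to 0.24. Of the tested H3 genes 6 of 10 fell and of the H4 genes 5 of 10, against 3 of 15 H2A, 2 of 12 H2B and 0 of 3 H1 genes. These counts are those with TMM and take near-identical copies as separate genes. With library totals the falls of H4C2, H4C3, H4C11, H4C12, H3C14, H3C15, H2AC17, H2BC11 and H2BC13 were not called, so that H4C1 alone remained among the H4 genes. The median log2 fold change was -0.26 over the members and 0.04 over all genes. The members' median was -0.05 with library totals, with 31 of 50 below 0, and -0.15 without HEK WT replicate 3. By class it was -0.50 for H3, -0.37 for H4, -0.25 for H2A, -0.10 for H2B and -0.07 for H1. The CPM ranges of the genotypes were separate and lower in HEK UL1 KO for 18 of the 50 members, against 28.1% of all genes, and higher for 3, against 24.7%. Fewer cells in S phase and less histone mRNA per cell cannot be told apart in bulk RNA.

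The members that rose most were a divergent pair, H2AC8 and H2BC8, which lie at chr6:26216921-26217437 and chr6:26216200-26216688, start 232 bases apart and encode an H2A and an H2B protein. In CN, H2AC8 was at 0.961, 0.813 and 0.695 CPM in HEK WT against 3.65, 3.60 and 4.38 in HEK UL1 KO. The genotypes did not overlap, with a log2 fold change of 2.23 (SE 0.15, adjusted p = 3.58e-06, edgeR). Here and below, SE was derived from the F statistic of the test. H2BC8 was at 0.380, 0.418 and 0.227 CPM in HEK WT against 1.48, 1.84 and 2.46 in HEK UL1 KO, a change of 2.48 (SE 0.26, adjusted p = 4.72e-05, edgeR). Here too each HEK UL1 KO library lay above each HEK WT library. In NO, H2AC8 was at 1.41, 1.67 and 0.505 CPM in HEK WT against 2.64, 5.64 and 3.94 in HEK UL1 KO. In the same fraction H2BC8 was at 0.666, 0.741 and 0.118 CPM in HEK WT against 1.27, 2.49 and 2.18 in HEK UL1 KO. Both ranges were separate, with log2 fold changes of 1.79 (SE 0.39, adjusted p = 0.0380, edgeR) and 2.02 (SE 0.47, adjusted p = 0.0499, edgeR). In CN both calls held under each of the 14 alternatives tried. In NO that of H2AC8 was lost when each library had to hold at least 10 counts (adjusted p = 0.0540, edgeR), and both were lost when library totals replaced TMM (adjusted p = 0.102 and 0.231, edgeR) and without HEK UL1 KO replicate 2 (0.104 and 0.119), and that of H2BC8 also without replicate 3 (0.0563). With library totals the log2 fold changes were larger, at 2.38 and 2.64, and 7 of all 34836 genes were called higher and 3 lower.

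H2BC7 lies at chr6:26199516-26199988, with the H4 gene H4C5 between it and the pair. It was at 1.33, 1.06 and 1.53 CPM in HEK WT against 1.91, 2.06 and 3.10 in HEK UL1 KO in CN, separate between genotypes, and rose by 0.85 on the log2 scale (SE 0.21, adjusted p = 0.00830, edgeR). In NO its ranges overlapped, from 0.893 to 2.22 CPM in HEK WT and from 0.919 to 1.93 in HEK UL1 KO, with a log2 fold change of -0.34 (adjusted p = 0.649, edgeR). The rise in CN was not called in a fit of all 12 libraries (adjusted p = 0.108, edgeR).

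H3C7 encodes a replication-dependent H3 protein and lies at chr6:26250142-26250635, in the same cluster. Its counts in CN were 50, 45 and 51 in HEK WT against 5, 7 and 5 in HEK UL1 KO, and in NO 26, 19 and 23 against 8, 1 and 4. The CPM ranges were separate in both fractions, 0.538 to 0.644 against 0.0683 to 0.0932 in CN and 0.387 to 0.666 against 0.0235 to 0.0937 in NO. H3C7 passed the count filter through the HEK WT libraries alone, and it was not tested for NO against CN in HEK UL1 KO. It fell by 2.83 on the log2 scale in CN (SE 0.31, adjusted p = 6.19e-05, edgeR) and by 3.00 in NO (SE 0.52, adjusted p = 0.00935, edgeR). The NO call was lost with library totals (adjusted p = 0.577, edgeR), where its log2 fold change was -2.49.

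**Figure D1:**
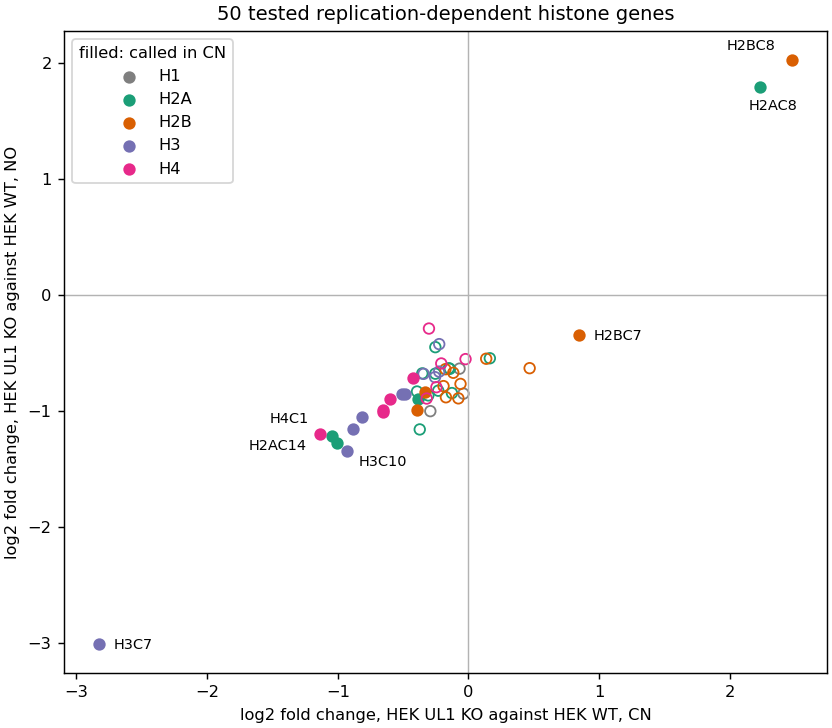
Log2 fold change of HEK UL1 KO against HEK WT in CN (horizontal axis) and in NO (vertical axis) for the 50 members tested in both, coloured by histone class and filled where called in CN. H2AC8 and H2BC8 sit at the upper right (2.23 and 2.48 in CN), H3C7 at the lower left (-2.83), and 48 of 50 members lie below 0 in NO.

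H3C11, at chr6:27871845-27872346, was not tested because of its low counts. It was listed at 0, 0 and 0 counts in CN of HEK WT against 13, 7 and 5 in HEK UL1 KO. Against a floor of 3 counts over the HEK WT group, the HEK UL1 KO group was 9.92-fold higher. The floor covers counting error in HEK WT only, and the HEK UL1 KO counts were taken as exact, so the ratio is not a lower bound. In NO it had 4, 0 and 3 counts in HEK WT against 10, 5 and 5 in HEK UL1 KO, and the CPM ranges overlapped.

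Among the abundant H3 genes, H3C2 was at 17.1, 20.2 and 19.1 CPM in HEK WT against 9.93, 11.3 and 10.8 in HEK UL1 KO in CN, without overlap. It fell by 0.82 on the log2 scale (SE 0.08, adjusted p = 4.31e-05, edgeR). H3C10 was at 3.46, 4.30 and 4.40 CPM in HEK WT against 1.69, 2.10 and 2.63 in HEK UL1 KO and fell by 0.93. H3C12 fell by 0.89 and the copies H3C14 and H3C15 by 0.51 and 0.49, although the calls of both copies were lost with library totals and in a fit of all 12 libraries. H3C1 was not called, with a log2 fold change of -0.26 (adjusted p = 0.369, edgeR). The 13 H3 genes summed to 59.5 ± 5.57 CPM in HEK WT against 39.97 ± 5.10 in HEK UL1 KO (SD, n = 3), and the libraries did not overlap. The log2 ratio of the summed level was -0.57 with TMM and -0.37 with library totals.

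Among the H4 genes, H4C3 was at 15.5, 15.7 and 16.4 CPM in HEK WT against 9.51, 10.6 and 11.3 in HEK UL1 KO in CN, and it fell by 0.60 (SE 0.08, adjusted p = 0.000203, edgeR). H4C1 was at 1.199, 1.21 and 1.72 CPM in HEK WT against 0.656, 0.666 and 0.540 in HEK UL1 KO, a fall by 1.14 (SE 0.20, adjusted p = 0.00136, edgeR). The ranges of both genes were separate. H4C11 and H4C12, near-identical copies, fell by 0.66 and 0.65, and H4C2 by 0.42. The call of H4C3 was lost with library totals (adjusted p = 0.0796, edgeR) and in the fit of all 12 libraries (0.1003), and so were those of H4C11, H4C12 and H4C2. That of H4C2 was lost under 6 of 14 alternatives. H4C15 (log2 fold change -0.02), H4C14 (-0.25) and H4C8 (-0.30) were not called. The 14 H4 genes summed to 66.4 ± 7.63 CPM in HEK WT against 52.2 ± 6.10 in HEK UL1 KO (SD, n = 3), again without overlap. The log2 ratio of the summed level was -0.35 with TMM and -0.13 with library totals.

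Among the other H2A genes, H2AC13 was at 5.01, 5.71 and 5.83 CPM in HEK WT against 2.17, 2.80 and 3.31 in HEK UL1 KO in CN. Its near copy H2AC14 was at 2.78, 3.502 and 2.93 CPM in HEK WT against 0.997, 1.46 and 2.04 in HEK UL1 KO. Neither gene overlapped between genotypes. They fell by 1.005 (SE 0.14, adjusted p = 0.000317, edgeR) and by 1.04 (SE 0.21, adjusted p = 0.00319, edgeR). The most abundant H2A genes were not called: H2AC20 had a log2 fold change of -0.25 (adjusted p = 0.0628, edgeR), H2AC18 of -0.15 and H2AC19 of -0.14. H2AC17 fell by 0.39, a call lost with library totals, in the fit of all 12 libraries and without HEK UL1 KO replicate 2. The most abundant H2B genes were not called either, with 0.14 for H2BC5 and -0.19 for H2BC12. H2BC11 was at 13.97, 15.8 and 15.2 CPM in HEK WT against 10.1, 11.5 and 14.2 in HEK UL1 KO. Its ranges overlap, and it fell by 0.33 (SE 0.11, adjusted p = 0.0420, edgeR). H2BC13 fell by 0.39. The calls of H2BC11 and H2BC13 were lost under 7 and 11 of 14 alternatives. The H2A genes summed to 110 ± 5.26 CPM in HEK WT against 96.3 ± 15.2 in HEK UL1 KO (SD, n = 3). The H2B genes summed to 106 ± 5.55 CPM against 101 ± 17.0 (SD, n = 3), and the ranges overlapped in both classes. With library totals the log2 ratio of the summed level was 0.0122 for H2A and 0.145 for H2B, above 0 where the TMM sums were lower in HEK UL1 KO.

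H1 proteins bind the DNA that enters and leaves the nucleosome. In CN, H1-2 was at 15.8, 17.0 and 18.1 CPM in HEK WT against 14.7, 15.6 and 18.2 in HEK UL1 KO. H1-4 was at 14.3, 14.9 and 14.8 CPM in HEK WT against 12.3, 14.2 and 16.5 in HEK UL1 KO, and H1-3 at 3.06, 3.30 and 3.04 CPM in HEK WT against 2.28, 2.42 and 3.002 in HEK UL1 KO. The ranges of H1-2 and H1-4 overlapped, while those of H1-3 were separate. None of the 3 was called, with log2 fold changes of -0.07, -0.04 and -0.29 (adjusted p = 0.576, 0.780 and 0.0874, edgeR).

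**Figure D2:**
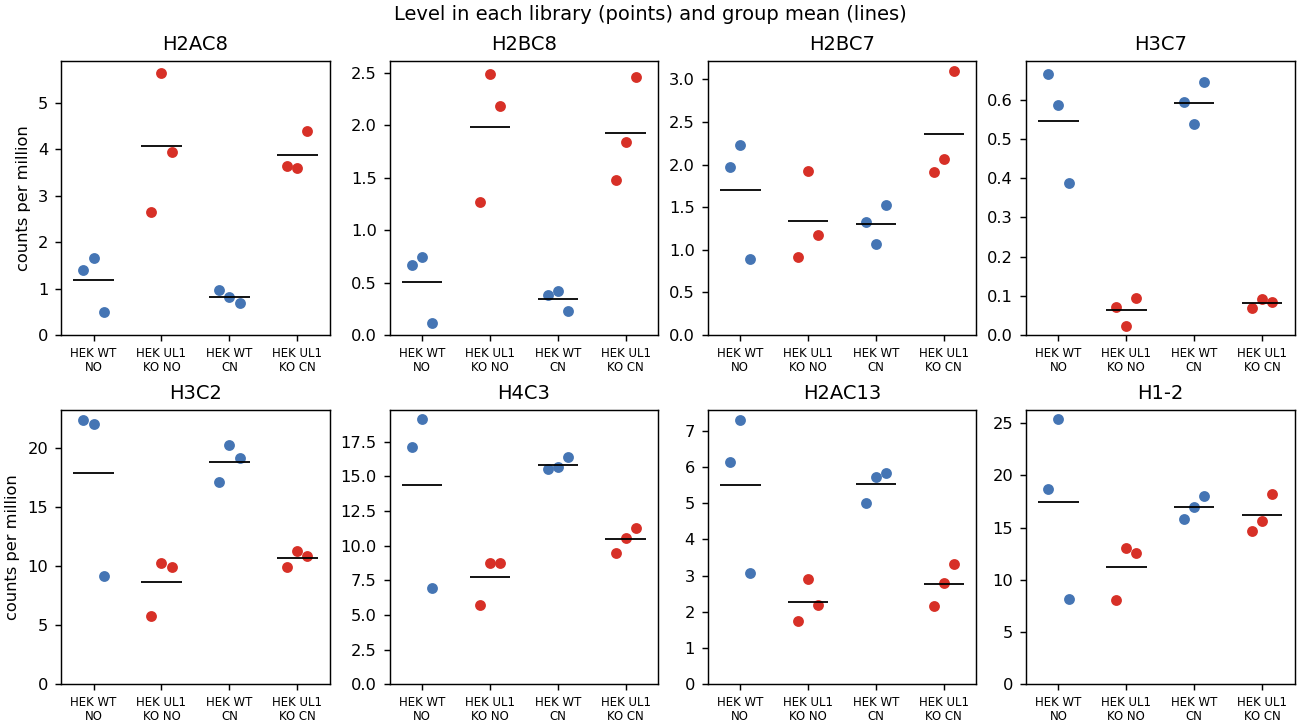
Level of 8 members in CPM (vertical axis) in each of the 12 libraries (points, blue for HEK WT and red for HEK UL1 KO) with the group mean (line). H2AC8 and H2BC8 are higher in each HEK UL1 KO library of both fractions, H3C7 and H2AC13 are lower, H3C2 and H4C3 are lower without overlap in CN alone, and H1-2 overlaps. CPM were scaled within each fraction, so levels in NO and CN are not on a common scale.

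The levels above depend on how libraries are scaled, so the share of each class in all member counts of a library was taken as well, which needs no scaling factor. In CN, H3 made up 15.1, 16.6 and 15.7% of the member counts in HEK WT against 12.1, 13.3 and 11.9% in HEK UL1 KO. H4 made up 17.3, 16.8 and 18.8% against 16.6, 16.3 and 15.8%. Both shares were lower in each HEK UL1 KO library. H2B made up 28.5, 27.8 and 27.8% in HEK WT against 31.4, 30.1 and 32.1% in HEK UL1 KO, and H1 made up 9.46, 9.35 and 9.001% against 10.3, 10.5 and 10.1%. These shares were higher in each HEK UL1 KO library, while those of H2A overlapped. In NO the shares of all 5 classes overlapped between the genotypes. With each group of near-identical copies counted once (61 genes kept), these 4 classes were separate in CN in the same direction, and the H2A share lay above as well. As shares have a fixed sum, a lower share of one class raises those of the others.

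**Figure D3:**
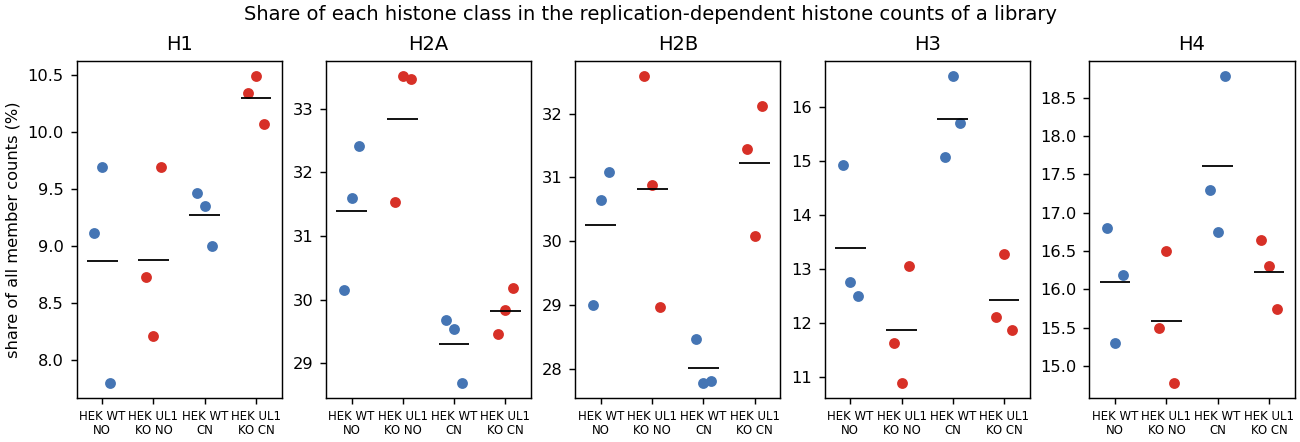
Share of each histone class in all member counts of a library, in percent (vertical axis, a separate scale per class that does not start at 0), for each library (points) and as the group mean (lines). In CN, the H3 share lies between 11.9 and 13.3% in HEK UL1 KO and between 15.1 and 16.6% in HEK WT, and in NO the genotypes overlap in each class.

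Single members were described by the same measure, which has no counterpart over all genes. H2AC8 made up 0.273, 0.215 and 0.174% of the member counts in HEK WT against 1.28, 1.17 and 1.17% in HEK UL1 KO. H2BC5, which was not called on its level, made up 4.88, 4.67 and 4.12% against 6.05, 5.53 and 5.90%. In NO, H2AC8 made up 0.296, 0.293 and 0.233% in HEK WT against 1.36, 1.81 and 1.47% in HEK UL1 KO. H2AC8, H2BC8, H2BC7, H2BC5, H3C11 and H2BC3 had larger shares, and H3C2, H3C7, H3C10, H2AC13 and H2AC14 smaller ones, in each HEK UL1 KO library of both fractions. H3C11 and H2BC3 had at most 13 and 8 counts in a library.

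Partners of a divergent pair had a median gap of 0.25 between their log2 fold changes in CN, over the 9 pairs in which both were tested. The gap was widest for H2AC7 and H2BC7 (-0.25, adjusted p = 0.0870, and 0.85, adjusted p = 0.00830, edgeR), which start 222 bases apart. For H2AC13 and H2BC13 the changes were -1.005 and -0.39. Levels within a pair differed widely: per kilobase, H2AC14 stood at 4.73 CPM and H2BC14 at 0.246, a ratio of 19.2, although their starts are 244 bases apart. The ratio of H2A to H2B was 1.98 for H2AC8 and H2BC8 and 0.308 for H2AC6 and H2BC4. The exonic bases of H2AC6 (1668) and H2BC4 (2881) exceed their canonical lengths (519 and 460), so the last ratio depends on the length taken.

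**Figure D4:**
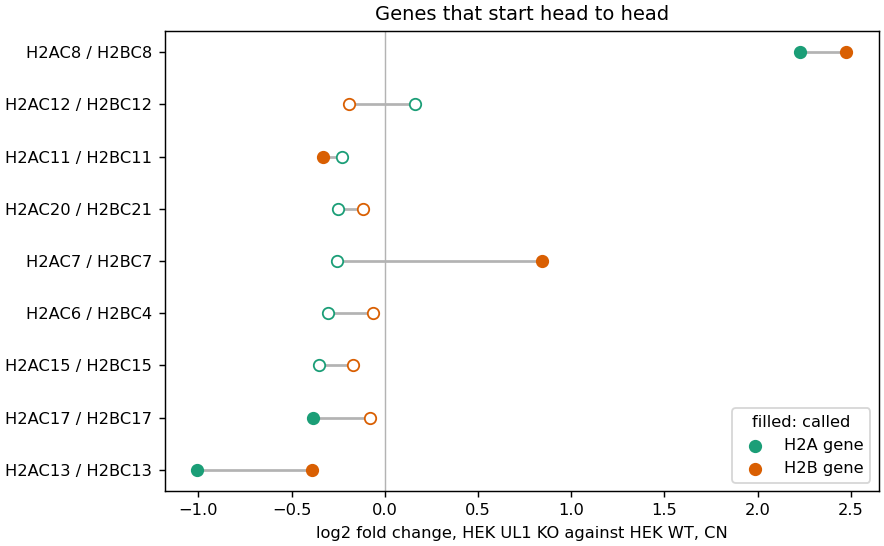
Log2 fold change of HEK UL1 KO against HEK WT in CN (horizontal axis) for the H2A gene (green) and the H2B gene (orange) of the 9 divergent pairs with both genes tested, joined by a line and filled where called. H2AC8 and H2BC8 lie together at 2.23 and 2.48, and H2AC7 and H2BC7 lie 1.10 apart.

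Position and the stem-loop were compared with the changes as a description. In CN, the median log2 fold change was -0.38 for 16 tested members of the second chromosome 6 cluster, of which 9 fell. It was -0.25 for 23 of the first chromosome 6 cluster, of which 5 fell and 3 rose. For 11 on chromosome 1 it was -0.18, and 2 of them fell. Over all genes tested in CN, 22.3% fell and 15.6% rose. The 3 members that rose and H3C7 all lie within the first chromosome 6 cluster. Members with the commonest of the stem-loops shown above had a median of -0.27 (30 tested), those that share the sequence of H2BC7 -0.09 (6 tested) and those that share the sequence of H4C1 -0.42 (7 tested). The last of these occurs in H4 genes alone, so against the groups before it stem-loop and class cannot be told apart. Within H4, the members that share the sequence of H4C12 had a median of -0.25 (3 tested).

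In NO, 3 of 50 tested members were called, where 0.939% of 34836 genes were. H2AC8 and H2BC8 rose, where 0.365% of all genes rose, and H3C7 fell, where 0.574% fell. A further 47 were not called, although 48 of 50 had a log2 fold change below 0 and the median was -0.81, against 0.00 over all genes. Leaving out 1 library moved the members' median between -1.10 (without HEK WT replicate 3) and -0.48 (without HEK WT replicate 2). The ranges were separate and lower in HEK UL1 KO for 3 members, against 9.17% of all genes, and higher for 2, against 3817 of the 34836 genes. The members summed to 476, 570 and 217 CPM in HEK WT against 194, 311 and 268 in HEK UL1 KO. HEK WT replicates 1 and 2 were above each HEK UL1 KO library and replicate 3 lay among them. Without replicate 3, 44 members were lower, with 15.3% of all genes lower. H3C2, for example, was at 22.4, 22.1 and 9.13 CPM in HEK WT against 5.78, 10.3 and 9.88 in HEK UL1 KO, which overlap, with a log2 fold change of -1.05 (SE 0.36, adjusted p = 0.170, edgeR). Scaling by library totals raised the median over all genes to 0.40 and that of the members to -0.22.

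The difference between the knockout effects in NO and CN was tested as an interaction over all 12 libraries. Of 52 members, 0 were called, where 0.114% of 37806 genes were, 0.0846% higher and 0.0291% lower. The difference was below 0 for 48 of 52 members, with a median of -0.31 against -0.06 over all genes. Leaving out 1 library moved the gap between these medians from -0.59 (without HEK WT NO replicate 3) to -0.02 (without HEK WT NO replicate 2). With DESeq2 0 were called as well, and 1 had an unadjusted p under 0.05 with edgeR. That member was H2BC7, with a difference of -1.04 (SE 0.44, unadjusted p = 0.0281, adjusted p = 1.00, edgeR).

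NO and CN of the same genotype were then compared. In HEK UL1 KO, 47 of 51 tested members were lower in NO, where 76.3% of 34468 genes differed, 35.6% lower and 40.7% higher. In HEK WT, 2 of 50 were lower, H4C1 (log2 fold change -1.08, adjusted p = 0.0433, edgeR) and H4C8 (-0.89, adjusted p = 0.0188), where 52.8% of 29340 genes differed, 20.9% lower and 31.9% higher. The count in HEK WT varied with the settings and libraries, and so did the share of all genes that were lower. It was 0 with a replicate block (share 13.1%), with library totals (2.13%) and without CN replicate 3 (14.2%). It was 12 with DESeq2 (18.4%), 20 of 65 without a filter (14.8%), 8 of 51 without NO replicate 1 (16.3%) and 25 of 51 without NO replicate 2 (26.4%). Leaving out 1 library moved the members' median in HEK WT between -0.69 and -0.12. The median was -0.94 over the members in HEK UL1 KO and -0.33 in HEK WT. Among the called members of HEK UL1 KO, H2BC7 fell by 1.45, H4C1 by 1.31, H3C1 by 1.31 and H2BC17 by 1.21, the largest falls. H2AC20 (-0.53, adjusted p = 0.0459, edgeR) and H2AC8 (-0.55, adjusted p = 0.0463) had the smallest. With library totals in place of TMM, the median over all genes in HEK UL1 KO moved to 0.79, 3 members were lower and 1 higher, where 2.43% of all genes were lower and 53.5% higher, and the sign of H2AC20 and H2AC8 turned to 0.18 and 0.17. The gap between the members' median and that of all genes was -0.97 with TMM and -0.99 with library totals. It was -0.50 with at least 10 counts in every library and -1.66 without a filter. Whether the genotypes differ in this respect is the interaction given above.

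**Figure D5:**
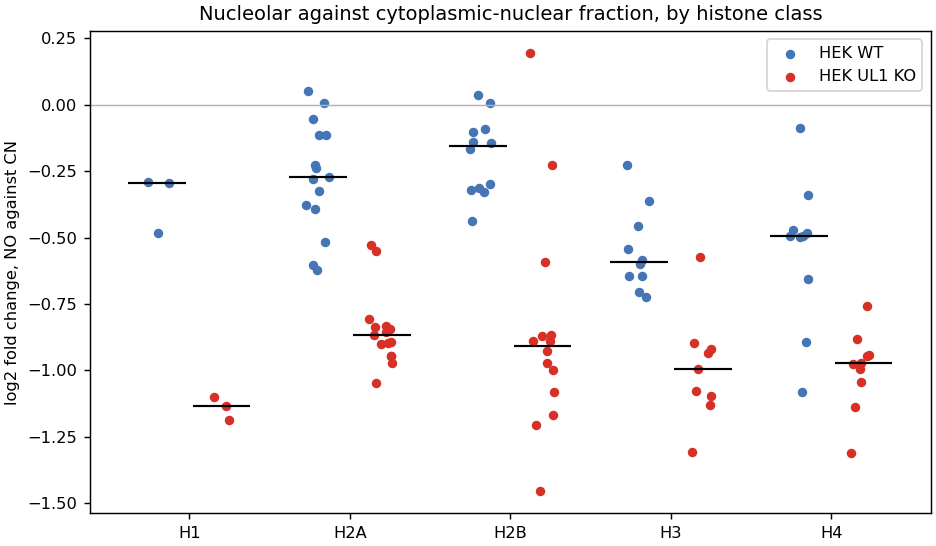
Log2 fold change of NO against CN (vertical axis) for each tested member, by histone class, in HEK WT (blue) and HEK UL1 KO (red), with class medians as lines. Medians in HEK UL1 KO lie between -1.13 for H1 and -0.87 for H2A, and in HEK WT between -0.59 for H3 and -0.15 for H2B.

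Other short protein-coding genes, with at most 800 exonic bases, were compared because members are short. Their median log2 fold change for NO against CN was 1.24 in HEK UL1 KO (140 genes, 31 lower) and 0.69 in HEK WT (92 genes, 13 lower), where the members' medians were below 0. For HEK UL1 KO against HEK WT the median of the short genes was 0.16 in either fraction. Genes of the pathway lists were also lower in NO of HEK UL1 KO, with 39 of 40 S phase genes (median -0.87), 25 of 26 genes for processing of the 3′ end (-0.81), 24 of 25 G2/M genes (-0.76), 14 of 14 histone chaperones (-0.89) and 9 of 9 transcription regulators (-0.94). In HEK WT the medians of these lists lay between -0.62 and -0.41, so lower levels in NO are not particular to the members. Over all genes, 35.6% were lower in NO of HEK UL1 KO and 20.9% in NO of HEK WT. Of 6 cytoplasmic and nuclear marker RNAs, 6 were lower in NO of HEK UL1 KO (median -1.13) and 5 in NO of HEK WT (-0.85). The 4 nucleolar marker RNAs (SNORD3A, SNORD118, SNORD13, RMRP) were higher in NO in both genotypes, with a median of 3.85 in HEK UL1 KO and 4.21 in HEK WT. For HEK UL1 KO against HEK WT their median was -0.95 in NO, with 0 of 4 called, and -0.52 in CN, with 2 of 4 lower. The median of the 6 cytoplasmic and nuclear marker RNAs was -0.10 in NO, with 0 called, and 0.20 in CN, with 3 of 6 higher. These values stand beside the members' median of -0.81 in NO, and their part in it was not tested.

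The H3 variant H3.3 is also made outside S phase, from polyadenylated mRNAs of H3-3A and H3-3B. H3-3A was at 49.97, 41.4 and 48.6 CPM in HEK WT against 26.1, 27.4 and 24.3 in HEK UL1 KO in CN, and it fell by 0.84 (SE 0.09, adjusted p = 5.09e-05, edgeR). H3-3B had a log2 fold change of -0.09 (adjusted p = 0.373, edgeR).

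Of the 26 genes for processing of the 3′ end and turnover of histone mRNA, 2 rose and 10 fell in CN, with a median of -0.20. Over all genes tested in CN, 15.6% rose and 22.3% fell, with a median of 0.04. SLBP was at 9.34, 9.06 and 8.77 CPM in HEK WT against 10.9, 11.2 and 9.53 in HEK UL1 KO, separate but not called (log2 fold change 0.22, adjusted p = 0.0534, edgeR). The U7 snRNP proteins LSM10 (-0.67, adjusted p = 0.0854, edgeR) and LSM11 (-0.24), the U7 snRNA gene RNU7-1 (0.43) and ZNF473 (-0.23), a zinc finger protein of the U7 complex, were not called. TUT7, a terminal uridylyltransferase that marks histone mRNA for decay, fell by 1.11, SYMPK, the scaffold of the cleavage complex, by 0.79 and CPSF3 by 0.34. Of 9 regulators of histone gene transcription 6 fell, NPAT among them by 0.29 (adjusted p = 0.0181, edgeR), the octamer factor POU2F1 by 0.50 and cyclin A2 (CCNA2) by 0.72. Of 40 S phase genes 21 fell and 2 rose, with a median of -0.24, and of 25 G2/M genes 11 fell and 1 rose, with a median of -0.25. CDC45 (by 0.72) and RPA2 (by 1.07) fell and MCM3 (0.46) and CDC6 (0.33) rose. Of 14 histone chaperone genes 6 fell and 1 rose. In NO, the median log2 fold changes of these 5 lists lay between -0.61 and -0.44. These list values stand beside the members' median of -0.26, and their part in the members' changes was not tested.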

How the data were processed

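The 12 libraries hold total RNA of both fractions and genotypes, with 3 numbered replicates per group. The authors deposited raw read counts per gene, made from 75-base single reads of libraries with no rRNA depletion. The submitters' processing notes name FastQC 0.11.4, cutadapt 3.7, STAR 2.7.8, featureCounts, DESeq2 and GRCh38, and up to 20 alignments were allowed per read. The counting options, the strand setting and the annotation version are not given in the sources used here. The members, gene lists and tests were chosen with earlier results of these data known.

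Genes were kept by filterByExpr (minimum count 10), scaled by TMM and tested with edgeR 4.0.16 (quasi-likelihood F test) in R 4.3.3, with Benjamini-Hochberg adjustment over all genes tested and a threshold of 0.05. Genotypes were compared within a fraction, fractions within a genotype, and the interaction over all 12 libraries. Each SE is the absolute log2 fold change divided by the square root of the F statistic, and was not estimated by the fit itself. The rule for named members took the 3 most abundant of each core class, all H1 genes, the 4 largest called rises and falls of each comparison and preset pathway genes. Other members with values, among them H3C11, H3C10, H3C12, H4C2 and H2BC13, were chosen after their values were seen. The code was tested on simulated data. Alternatives were library totals, scaling without rRNA genes, other filters, a replicate block, copies summed, DESeq2 1.42.0, a fit of all 12 libraries and leaving out each replicate. CPM were scaled within each fraction, while levels per kilobase and the ranking by abundance used scaling over all 12 libraries. The floor covers counting error in the HEK WT group only. Depth is given as the total count per library. Promoters and positions came from RefSeq (GRCh38.p14) and GENCODE. One gene of the pathway lists is not reported here.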

Additional observations from a re-analysis of the deposited data

How the results depend on the processing

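The 9 CN calls of H4C1, H3C2, H2BC8, H2AC8, H3C7, H2AC13, H3C10, H2AC14 and H3C12 held under each alternative that gave a value, while none of the 3 NO calls did, none of the 2 calls of NO against CN in HEK WT, and 3 of 47 in HEK UL1 KO (H1-4, H2BC7 and H2BC17). The depth of 37141666 to 104040073 counts per library left 14 members untested. Where a value moved, the cause was not tested beyond what the alternative itself changes.

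For HEK UL1 KO against HEK WT in NO, 0 members were higher and 0 lower with library totals or with at least 10 counts in every library, a filter that left H3C7 and H2BC8 untested. Over all genes, 0.0201% were then higher and 0.00861% lower with library totals, and 0.284% and 0.280% with the filter. Without a filter 10 were lower (1.49% of all genes), with DESeq2 3 (3.34%) and in a fit of all 12 libraries 6 (2.99%), where the share with TMM and the usual filter was 0.574%. Leaving out 1 library gave 0 to 2 higher and 1 to 44 lower. Without HEK WT replicate 3, 44 were lower (15.3% of all genes). Without HEK UL1 KO replicate 2, 0 were higher (0.217% of all genes), and without HEK UL1 KO replicate 3, 1 was higher (0.237%). In CN, 5 were higher without a filter (8.45% of all genes), and 7 were lower with library totals (6.35%) and 7 in the fit of all 12 libraries (6.41%). Leaving out HEK WT CN replicate 2 or 3, or HEK UL1 KO CN replicate 1 or 2, lost the call of H2BC11, leaving out any of the 6 lost that of H2BC13, leaving out HEK WT replicate 3 or HEK UL1 KO replicate 1 or 2 lost that of H4C2, and leaving out HEK UL1 KO replicate 2 lost that of H2AC17.

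For NO against CN in HEK WT, 1 member was higher without a filter, where 23.9% of all genes were higher. With library totals 0 were lower (2.13% of all genes), with scaling without rRNA genes 1 (15.6%), without a filter 20 (14.8%), with at least 10 counts in every library 0 (17.5%) and with DESeq2 12 (18.4%). Leaving out 1 library gave 0 to 25 lower, with 8 without NO replicate 1 (16.3%), 25 without NO replicate 2 (26.4%), 4 without NO replicate 3 (20.8%), 1 without CN replicate 1 (14.5%) and 0 without CN replicate 3 (14.2%). In HEK UL1 KO, 1 was higher (53.5% of all genes) and 3 were lower (2.43%) with library totals, and 26 were lower (22.0%) with at least 10 counts in every library.

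With library totals the log2 ratio of the summed level was -0.12 for HEK UL1 KO against HEK WT in NO, -0.11 with library totals without rRNA genes, -0.0132 in CN, and -0.20 for NO against CN in HEK UL1 KO. With library totals the members below 0 went from 48 to 41 of 50 in NO, from 44 to 31 of 50 in CN and from 50 to 45 of 51 for NO against CN in HEK UL1 KO. Of the members chosen by the naming rule, those whose sign turned in NO were H2AC20 (0.11), H2BC5 (0.0683), H2BC7 (0.22) and H4C8 (0.27). In CN they were H2AC18 (0.0550), H2AC19 (0.0621), H4C15 (0.21), H1-2 (0.14), H1-4 (0.17), H2BC12 (0.0266) and H2BC17 (0.13). For NO against CN in HEK UL1 KO, where called members alone were followed, they were H2AC20 (0.18) and H2AC8 (0.17). With at least 10 counts in every library, CN values turned to 0.0575 for H4C15, 0.0112 for H1-2, 0.0410 for H1-4 and 0.0022 for H2BC17. Leaving out 1 CN library gave -0.12 to 0.17 for H4C15, -0.14 to 0.0262 for H1-2, -0.13 to 0.0403 for H1-4 and -0.23 to 0.0129 for H2BC17.

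Same-numbered libraries did not deviate together, with correlations from -0.48 to -0.0368, so the replicate numbers were not taken as pairs. With a replicate block, 0 members were lower for NO against CN in HEK WT, and the counts of the other comparisons stayed within 1.5 times.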

Other observations

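Of the pseudogenes left out of the members, 3 were tested. H3C9P had 255, 216 and 359 counts in CN of HEK WT against 139, 111 and 109 in HEK UL1 KO and fell by 0.96 on the log2 scale (SE 0.20, adjusted p = 0.00371, edgeR). H2BC19P (0.19) and H2BC20P (0.02) were not called.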
